A study of Homo sapiens with 12 samples.

Results

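MYC, its neighbour PVT1 and 8 genes of the MAX, MXD and MLX partner network were followed in SHI-1 cells, an acute myeloid leukemia line that carries the MLL-AF6 fusion, after exposure to disulfiram with copper, to niclosamide or to both. The 10 genes were taken by symbol from the 14866 genes in the files, and all 10 passed the filter on low values that left 13502 genes. MYC and PVT1 were chosen on their values in these same libraries, where both were already known to be among the large changes of the drug combination, so their levels are described here and no test is given for them. The 8 partners, MAX, MXD1, MXD3, MXD4, MXI1, MNT, MLX and MLXIP, entered as members of the family. Because the list was drawn up with results of these data in view, their p-values are not independent support for a role of the network.

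RNA was sequenced from 4 groups of 3 libraries, each group from 3 independent experiments, after 16 h. The groups were the solvent control (DMSO), 0.3 µM disulfiram with 1 µM copper (DSF), 5 µM niclosamide (NSM), and both drugs at those doses with the copper (DSF+NSM). All groups share the cell line, and the labels give copper for the groups with disulfiram and do not state it for DMSO or NSM. Values are the normalized counts that the authors deposited, that is, estimated reads per gene divided by a scaling factor of the library and possibly of the gene. The deposited values of a library summed to between 13963864 (a DMSO library) and 25584448 (a DSF+NSM library), all 3 libraries with both drugs being above the other 9, and the reads behind them were estimated at 10200000 to 19000000 a library. Scaling the libraries to equal sums moved the median gene, on the log2 scale and against DMSO, from 0.03 to −0.75 in DSF+NSM, from 0.01 to −0.25 in NSM and from 0.05 to −0.05 in DSF. Places where that turns the direction of a member are given, as are calls that it ends among the named genes of the lists. Listed genes that were not named, or not called, were not followed through the other scalings one by one. The third NSM library stood apart from the other 2, with a Spearman correlation of 0.952 and 0.959 with them against 0.981 to 0.996 for other pairs within a group. Of 9 myeloid markers, 8 stood at 100 or more on average in DMSO, T and B cell markers at 71.9 or less and keratins 8 and 18 at 6.7 or less. In RNA from a bulk culture, fewer cells of one kind and less RNA in each cell cannot be told apart.

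MYC is a basic helix-loop-helix leucine zipper protein that binds DNA only as a pair with MAX, at the sequence CACGTG called the E-box, where it promotes genes of ribosome production, nucleotide synthesis and metabolism. The MXD proteins, MXI1 (also called MXD2) and MNT pair with the same MAX and the same sites but bring in the SIN3 corepressor and histone deacetylases, so they oppose MYC, and MXD1 is known for rising as myeloid cells differentiate. MLX is a second hub beside MAX, which pairs with MLXIP (MondoA), a sensor of glucose-6-phosphate, as well as with MXD1, MXD4 and MNT. In acute myeloid leukemia, MYC is among the genes kept high by MLL fusions. PVT1 is a long non-coding RNA gene that starts 59.1 kb beyond MYC on the same strand, and its promoter is known to compete with that of MYC for shared enhancers.

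MYC was lowest where both drugs were given. Its normalized counts were 6648, 7067 and 7246 in the DMSO libraries, 4824, 4562 and 5327 in DSF, 2545, 2775 and 2294 in NSM, and 376, 261 and 588 in DSF+NSM. Every treated group lay below DMSO with no overlap between any 2 of the 4 groups, and the order was DMSO, DSF, NSM, DSF+NSM from high to low. Groups without overlap were common, at 60.9%, 57% and 69.3% of all tested genes for DSF, NSM and DSF+NSM against DMSO. The group means were 6987 ± 307, 4905 ± 389, 2538 ± 241 and 409 ± 166 in that order (SD, n = 3 each), so the DMSO mean was 1.42 times that of DSF, 2.75 times that of NSM and 17.1 times that of DSF+NSM. On the scale of log2(normalized count + 1), the differences from DMSO were −0.51, −1.46 and −4.17. The combination differed from DSF by −3.66 (12-fold between means) and from NSM by −2.71 (6.21-fold). The sum of the log2 differences of the single drugs falls short of that of the combination, with a remainder (the interaction, DSF+NSM minus DSF minus NSM plus DMSO) of −2.19. Equal sums made the differences from DMSO larger, at −0.61, −1.73 and −4.95, and without the third NSM library that of NSM was −1.39. About 169 to 265 reads stood behind MYC in the DSF+NSM libraries and 7392 to 9353 in DMSO. MYC shares 194 bases of exon with CASC11 on the opposite strand, and whether strand was used in counting is not given in the sources used here.

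PVT1 went the other way from MYC after NSM and after the combination, at a far lower level. Its normalized counts were 53.9, 41.6 and 34.3 in DMSO, 32.4, 40.8 and 38.2 in DSF, 76.6, 62 and 74.2 in NSM, and 103, 100 and 75.5 in DSF+NSM. DSF overlapped DMSO, whereas NSM and DSF+NSM both lay above DMSO and overlapped each other. The means were 43.3 ± 9.91, 37.1 ± 4.3, 70.9 ± 7.8 and 93 ± 15.3 (SD, n = 3 each), and the log2 differences from DMSO were −0.20 for DSF, 0.72 for NSM and 1.10 where both drugs were given (2.15-fold). The size for PVT1 depends on the scaling. With equal sums the differences were 0.45 in NSM and 0.33 in DSF+NSM, and the difference of DSF+NSM from NSM turned from 0.38 to −0.13. Only about 28 to 78 reads of PVT1 were behind each library's value, and in DSF+NSM between 34 and 65, against 35 to 61 in DMSO. PVT1 shares exons with several short genes, among them the microRNA genes MIR1204, MIR1206 and MIR1207, whose exons lie within its own on the same strand.

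A scaling factor common to a whole library cancels in a ratio of 2 of its genes, whereas a factor of the gene would not. Per kb of the canonical transcript, the ratio of PVT1 to MYC was 0.0123, 0.00895 and 0.00721 in DMSO and 0.0102, 0.0136 and 0.0109 in DSF. It was 0.0458, 0.034 and 0.0492 in NSM and 0.418, 0.586 and 0.195 in DSF+NSM. The ratio thus overlapped between DMSO and DSF and was higher, without overlap, in NSM and again in DSF+NSM. Both genes were chosen on these values. With MYC as the divisor, the ratio largely restates the fall of MYC, 17.1-fold in DSF+NSM beside 2.15-fold for PVT1. It does not show whether PVT1 itself rose.

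**Figure D1:**
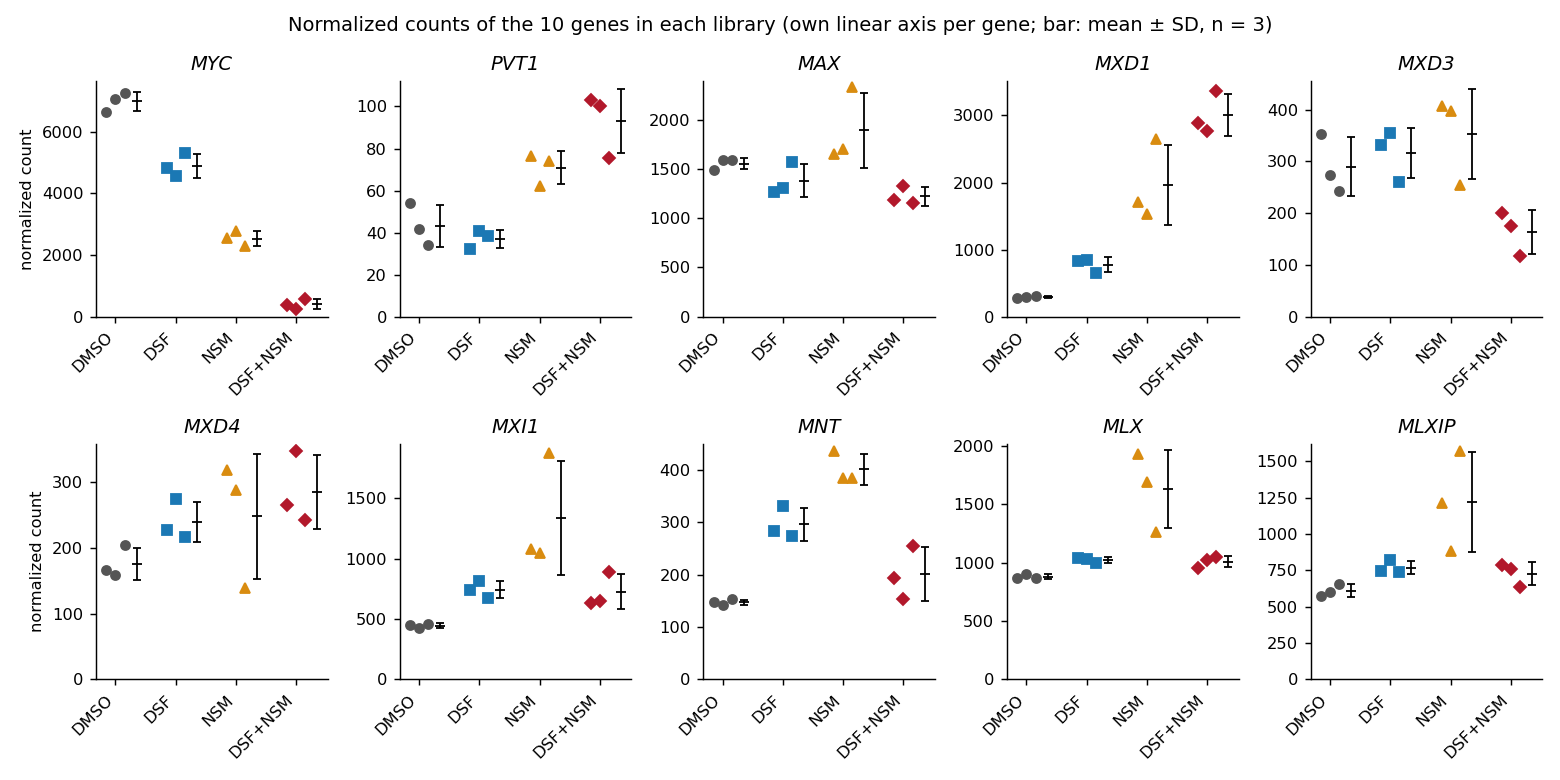
Normalized counts of the 10 genes in each of the 12 libraries, with 1 panel and 1 linear axis from 0 for each gene; points are libraries by group (DMSO, DSF, NSM, DSF+NSM) and bars are the mean ± SD of 3 libraries. MYC steps down over the 4 groups from a mean of 6987 to 409 while MXD1 steps up from 297 to 3004, and MXI1, MNT, MLX and MLXIP are highest in NSM.

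MAX, the common partner, moved less than MYC. Its normalized counts were 1484, 1586 and 1591 in DMSO, 1264, 1301 and 1571 in DSF, 1647, 1700 and 2330 in NSM, and 1183, 1331 and 1149 in DSF+NSM. No comparison of MAX with DMSO passed the test in the fit over all 12 libraries. Library weights called MAX lower in DSF (−0.23, limma adjusted p 0.0056) and higher in NSM (0.12, limma adjusted p 0.0261). Without weights, the log2 fold changes were −0.18 (95% interval −0.50 to 0.14) for DSF, 0.27 (−0.06 to 0.59) for NSM and −0.35 (−0.67 to −0.03) with both, with limma adjusted p of 0.442, 0.155 and 0.0649. The last of these was under 0.05 without the third NSM library (limma adjusted p 0.00469), with only the groups compared (limma adjusted p 0.00762), with library weights (limma adjusted p 0.000758) and with equal sums (−1.13), where the NSM value became −0.00. MAX was lower in the combination than in NSM, with a log2 fold change of −0.62 (limma adjusted p 0.00623), or −0.46 without that library (limma adjusted p 0.00258), and this was not called when only the groups compared were fitted (limma adjusted p 0.0639). MAX (chr14:65006174-65102695, minus strand, GRCh38 with GENCODE 44, as for the positions that follow) shares 822 bases of exon with FNTB, the gene of a farnesyltransferase subunit, on the opposite strand.

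MXD1, a MAX partner that opposes MYC, rose in all 3 treated groups. Its normalized counts were 282, 300 and 310 in DMSO, 824, 851 and 651 in DSF, 1712, 1537 and 2641 in NSM, and 2880, 2774 and 3358 in DSF+NSM. No 2 groups overlapped, and the order of the groups was that of MYC turned round. The log2 fold change from DMSO was 1.37 ± 0.19 (SE) for DSF, 2.68 ± 0.19 for NSM and 3.33 ± 0.19 with both, a 10.1-fold difference between means in the last (limma adjusted p 0.000518, 7.05e-07 and 5.47e-08). With equal sums all 3 rises remained called, at 1.27, 2.41 and 2.55. The combination was higher than DSF by 1.96 (limma adjusted p 9.48e-06) and higher than NSM by 0.65 (limma adjusted p 0.0169). The step from NSM to the combination was not called with equal sums (0.13), nor with only the groups compared (limma adjusted p 0.0876), without the second NSM library (0.49, limma adjusted p 0.0668) or the third DSF+NSM library (0.57, limma adjusted p 0.0548). In contrast to MYC, the sum of the single-drug changes of MXD1 exceeded that of the combination, with an interaction of −0.72 (95% interval −1.30 to −0.14) that did not pass (limma adjusted p 0.0643). It did pass without the second NSM library (−0.88, limma adjusted p 0.0308), without the third (−0.49, limma adjusted p 0.0271), with equal sums (−1.14, limma adjusted p 0.00721) and with library weights (−0.52, limma adjusted p 0.000201). MXD1 (chr2:69897688-69942945, plus strand) shares 237 bases of exon with SNRNP27 on the same strand.

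Among the other MXD genes, MXD3, which is known for its expression in dividing cells, fell only with both drugs. Its normalized counts were 353, 273 and 243 in DMSO, 332, 355 and 261 in DSF, 408, 398 and 254 in NSM, and 200, 176 and 117 in DSF+NSM. The single-drug groups overlapped DMSO, and DSF+NSM lay below all others. The log2 fold change was −0.83 ± 0.25 (SE) against DMSO, −0.96 against DSF and −1.10 against NSM (limma adjusted p 0.014, 0.00797 and 0.00441), whereas those of DSF and NSM were 0.13 and 0.27 (limma adjusted p 0.762 and 0.394). With library weights that of NSM was called higher (0.49, limma adjusted p 1.39e-05). The difference of the effects was itself called, with an interaction of −1.23 (limma adjusted p 0.0222). The fall against DMSO lost its call without the first DMSO library (−0.68, limma adjusted p 0.0659) or the third DSF+NSM library (−0.60, limma adjusted p 0.0629). The interaction lost it without the second or the third DMSO, the first or second DSF or the second NSM library, at −1.12 to −1.20 with limma adjusted p of 0.05 to 0.0608. MXD3 (chr5:177301461-177312757, minus strand) overlaps PRELID1 (1148 exon bases, opposite strand) and RAB24 (926 exon bases, same strand), so its counts may hold reads of these genes.

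MXD4, a family member linked to differentiated cells, passed no test in the fit over all 12 libraries. Its normalized counts were 166, 159 and 204 in DMSO, 227, 274 and 216 in DSF, 318, 288 and 139 in NSM, and 265, 348 and 242 in DSF+NSM. The third NSM library was below every DMSO library and the other 2 above. The log2 fold changes from DMSO were 0.44 (95% interval −0.16 to 1.04), 0.41 (−0.18 to 1.01) and 0.68 (0.08 to 1.28), with limma adjusted p of 0.294, 0.232 and 0.0534. Without the third NSM library all 3 were called, at 0.44, 0.79 and 0.68 (limma adjusted p 0.0357, 0.00124 and 0.00126). Library weights, which give noisier libraries less influence, called MXD4 in all 3 treated groups. The value of the combination was also called without the first NSM library (limma adjusted p 0.0369), with a replicate block (limma adjusted p 0.0443) and with only the groups compared (limma adjusted p 0.00643), and it was −0.10 with equal sums. The gene lies at chr4:2247432-2262109 on the minus strand.

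MXI1 and MNT, which also repress from E-boxes with MAX, were highest in NSM and lower again with both drugs. The normalized counts of MXI1 were 453, 423 and 462 in DMSO, 737, 815 and 674 in DSF, 1083, 1042 and 1877 in NSM, and 629, 653 and 891 in DSF+NSM. All treated groups lay above DMSO, and DSF and DSF+NSM overlapped each other. MXI1 rose by 0.73 in DSF, 1.52 in NSM and 0.68 with both drugs on the log2 scale (SE 0.21, limma adjusted p 0.0348, 0.000106 and 0.0176), although the value of the combination was −0.10 with equal sums. The call in DSF is weak. It was lost with equal sums (0.63, limma adjusted p 0.072) and with median of ratios scaling (0.68, limma adjusted p 0.0526). It was also lost when any DMSO or DSF library was left out (0.66 to 0.80, limma adjusted p 0.057 to 0.142). The call in DSF+NSM was lost without the second DMSO library (0.64, limma adjusted p 0.0572) or the third DSF+NSM library (0.52, limma adjusted p 0.0763). The combination was lower than NSM (−0.84, limma adjusted p 0.00832, or 0.0682 with only the groups compared), and the interaction was −1.57 (limma adjusted p 0.00259). The gene lies at chr10:110207605-110287365 on the plus strand and shares 205 exon bases with an unnamed gene on the opposite strand.

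For MNT the normalized counts were 147, 142 and 153 in DMSO, 283, 331 and 273 in DSF, 435, 384 and 384 in NSM, and 194, 153 and 255 in DSF+NSM. The 2 single-drug groups lay apart from DMSO and from each other, whereas the lowest library of the combination was level with the highest of DMSO. MNT rose by 1.00 in DSF and 1.44 in NSM on the log2 scale (SE 0.18, limma adjusted p 0.00348 and 5.37e-05), 2.01 and 2.72 times the DMSO mean. In DSF+NSM its log2 fold change was 0.41 (95% interval 0.01 to 0.81, limma adjusted p 0.0758), which became −0.36 with equal sums and was called without the third NSM library (limma adjusted p 0.0355) or the second DSF+NSM library (0.59, limma adjusted p 0.0186). MNT was lower with both drugs than with DSF or NSM, with log2 fold changes of −0.58 and −1.02, where the limma adjusted p was 0.0222 and 0.00102. The step from DSF was not called without the second DSF library (−0.50, limma adjusted p 0.09) or the first or second DSF+NSM library (−0.57 and −0.40, limma adjusted p 0.058 and 0.103). Its interaction of −2.02 ± 0.26 (SE) was the most negative of the 8 partners (limma adjusted p 0.000236). MNT (chr17:2384073-2401104, minus strand) shares 1065 exon bases with an unnamed gene on the opposite strand.

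MLX and MLXIP, the MondoA arm of the network, followed the same course at a smaller size. MLX had normalized counts of 868, 903 and 867 in DMSO, 1042, 1035 and 997 in DSF, 1926, 1688 and 1266 in NSM, and 958, 1022 and 1047 in DSF+NSM. MLXIP had 573, 601 and 658 in DMSO, 746, 820 and 738 in DSF, 1211, 881 and 1571 in NSM, and 784, 762 and 637 in DSF+NSM. For both genes NSM lay above every other group, and DSF overlapped DSF+NSM. MLX rose by 0.87 ± 0.14 (SE) and MLXIP by 0.96 ± 0.18 on the log2 scale in NSM (limma adjusted p 0.000363 and 0.00102). In DSF the values were 0.22 and 0.33 (limma adjusted p 0.312 and 0.238), and both were called without the third NSM library (limma adjusted p 0.0452 and 0.0421). Both were also called there with only the groups compared (limma adjusted p 0.0124 and 0.00248) and with library weights (limma adjusted p 0.00356 and 0.000606). In DSF+NSM the values were 0.20 and 0.25 (limma adjusted p 0.267 and 0.278), with a call for MLX without the third NSM library (limma adjusted p 0.0468) and, with equal sums, called falls of −0.59 and −0.53 (limma adjusted p 0.00465 and 0.0139). Library weights called both higher in DSF+NSM (0.16 and 0.33, limma adjusted p 0.042 and 0.00217). Against NSM, the combination was lower for both, at −0.67 for MLX and −0.71 for MLXIP (limma adjusted p 0.00316 and 0.00931, or 0.055 and 0.0789 with only the groups compared), and the interactions were −0.89 and −1.04 (limma adjusted p 0.00699 and 0.0113). MLX (chr17:42567072-42573239, plus strand) shares 775 exon bases with PSMC3IP on the opposite strand, and for MLXIP (chr12:122078756-122147344, plus strand) no shared exon was found.

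Over the 8 partners, DSF raised 3 (MXD1, MXI1 and MNT) and lowered 0 against a background of 17.8% of all genes called in either direction, 11.9% higher and 5.95% lower. By the unadjusted limma test the lower count was also 0, since no partner was under 0.05 in that direction. NSM raised 5 (MXD1, MXI1, MNT, MLX and MLXIP), where 49.1% of all genes were called, 25.4% higher and 23.7% lower. DSF+NSM raised 2 (MXD1 and MXI1) and lowered 1 (MXD3), where 52.8% were called, 28.3% higher and 24.5% lower, so that its share of called partners lay below the share of all genes. The directions in DSF+NSM depend on the scaling. With equal sums MXD1 was called higher (2.55), and MAX (−1.13), MXD3 (−1.61), MLX (−0.59) and MLXIP (−0.53) were called lower. MXI1 was then −0.10 and not called, and 9141 of the 13502 genes were called in all. Between the combination and DSF, 3 partners were called (MXD1 higher, MNT and MXD3 lower) beside 43.1% of all genes. Between the combination and NSM, 7 were called (MXD1 higher, and MAX, MLX, MLXIP, MNT, MXD3 and MXI1 lower) beside 38.6%. The interaction was called for 5 (MXD3, MXI1, MNT, MLX and MLXIP), each negative, beside 26.1%. The third NSM library weighs on these counts. Without it 6 partners were called in DSF and 7 in DSF+NSM, with 5551 and 9130 genes called in all in place of 2405 and 7125. The 5 rises in NSM were called without it too, at 2.45 for MXD1, 1.25 for MXI1, 1.47 for MNT, 1.04 for MLX and 0.76 for MLXIP, and so were the 5 interactions, at −0.84 to −2.05.

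**Figure D2:**
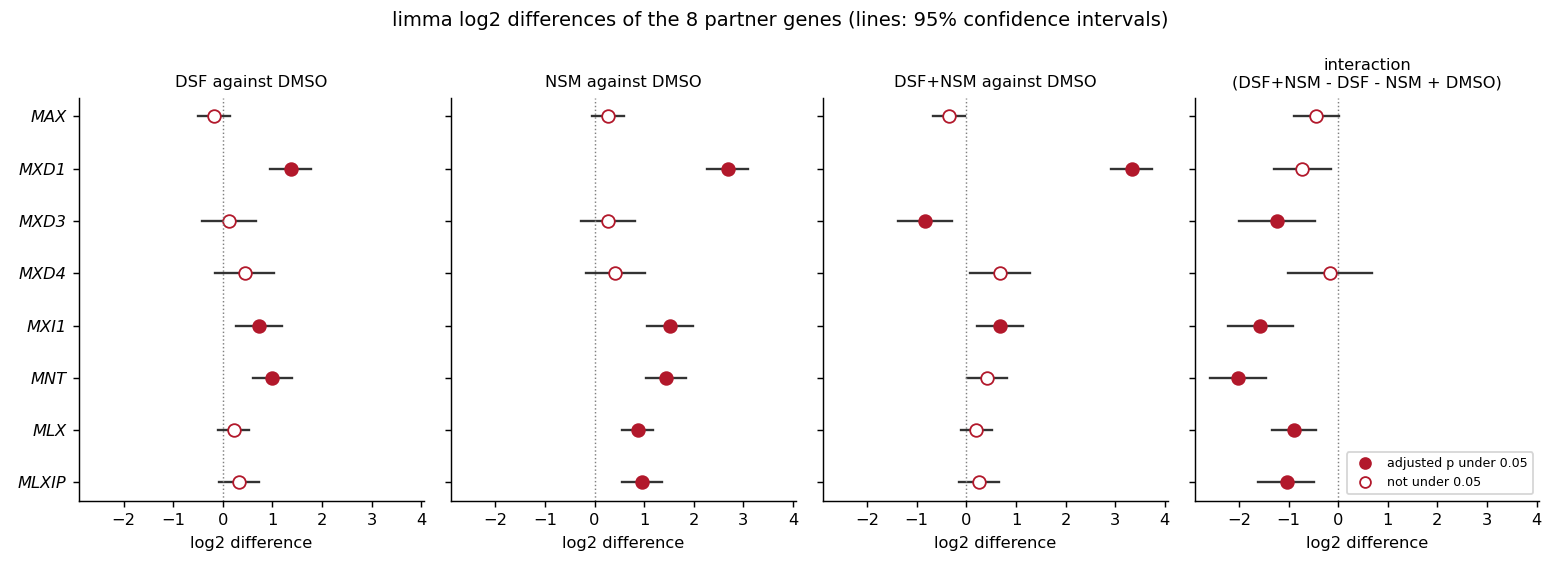
limma log2 differences of the 8 partner genes in 4 panels (DSF, NSM and DSF+NSM against DMSO, and the interaction), with 95% confidence intervals as lines and filled points for an adjusted p under 0.05. MXD1 lies to the right in all 3 comparisons with DMSO, up to 3.33, MXD3 is to the left in DSF+NSM at −0.83, and all 8 interactions are below 0, with 5 of them called.

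Levels of different genes were compared per kb of the canonical transcript. In DMSO, MYC stood at 1878 ± 82.5 normalized counts per kb, followed by MAX (773), MLX (373), MXD3 (271), MXI1 (129), MLXIP (72.8), MXD1 (53.6), MXD4 (45.5), MNT (29.9) and PVT1 (17.7). Only MXD1 and MXD4 overlapped as neighbours in that order. In DSF, MYC still led (1318) over MAX (686), whereas in NSM, MAX (941) came first and MLX (689) and MYC (682) overlapped behind it. MYC made up 51.5%, 39.7%, 18.4% and 4.8% of the summed level of the 10 genes in DMSO, DSF, NSM and DSF+NSM. With both drugs the order was MAX (608 per kb), MXD1 (541), MLX (427), MXI1 (209), MXD3 (154), MYC (110), MLXIP (86.7), MXD4 (73.6), MNT (40.8) and PVT1 (38.1). There MAX overlapped MXD1, each neighbour from MXI1 down to MXD4 overlapped the next, and so did MNT and PVT1.

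The balance of MYC and MXD1 within a library spanned the widest range. Per kb, the ratio of MYC to MXD1 was 35.2, 35.1 and 34.9 in DMSO, 8.74, 7.99 and 12.2 in DSF, 2.22, 2.69 and 1.29 in NSM, and 0.195, 0.14 and 0.261 in DSF+NSM. MYC RNA was thus above MXD1 RNA in all 9 libraries of the first 3 groups and below it in the 3 libraries with both drugs. The ratio of MYC to MAX was 2.41 to 2.46 in DMSO, 1.83 to 2.06 in DSF, 0.532 to 0.882 in NSM and 0.106 to 0.276 in DSF+NSM, and that of MXD1 to MAX was 0.0685 to 0.0705, 0.15 to 0.237, 0.328 to 0.411 and 0.755 to 1.06 in the same order. Neither overlapped between groups. The 5 repressor genes (MXD1, MXD3, MXD4, MXI1 and MNT) summed to 0.257 to 0.327 of MYC in DMSO, 0.466 to 0.7 in DSF, 1.48 to 2.22 in NSM and 6.87 to 13.9 in DSF+NSM. These are ratios of RNA, with no measure of protein, and since MYC is in each but that of MXD1 to MAX, their order restates its own.

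**Figure D3:**
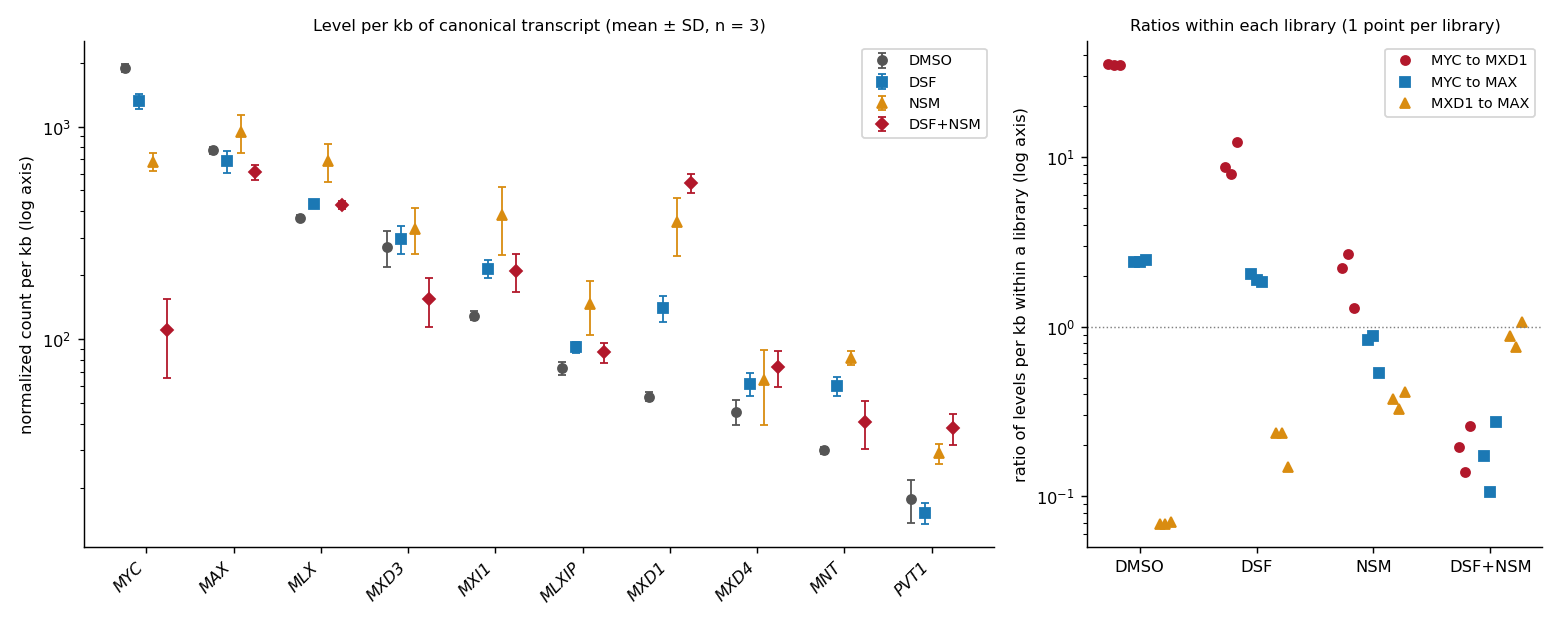
Left, the mean level of each gene per kb of canonical transcript in the 4 groups (log axis, mean ± SD, n = 3); right, 3 ratios of levels per kb within each library (log axis, 1 point per library, dotted line at 1). MYC drops from the highest level, 1878 per kb in DMSO, to 110 in DSF+NSM, and the MYC to MXD1 ratio crosses 1 only in the DSF+NSM libraries.

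The E-box was searched for as the letters CACGTG, which read the same on both strands, in the RefSeq promoters of GRCh38.p14 (250 bases before to 50 after a start). It was present in 7.26% of 35116 promoter entries and in the promoters of 12.7% of the 9545 tested genes that have an entry. Among the 8 partners it was found for MXD4, MNT and MLX. The sequences around it, with the E-box in capitals, are printed for these and for ARRDC4, a target of MondoA and MLX, and HSPE1, a listed MYC target whose values are given further on. They lie at chr4:2262315-2262359 (minus strand), chr17:2401221-2401280 (minus), chr17:42567023-42567082 (plus), chr15:97960466-97960525 (plus) and chr2:197500330-197500378 (plus), with the first base of the E-box 238, 193, 50, 210 and 22 bases before the RefSeq start, which can differ from the gene starts of GENCODE given above.
MXD4: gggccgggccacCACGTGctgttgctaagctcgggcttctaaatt
MNT: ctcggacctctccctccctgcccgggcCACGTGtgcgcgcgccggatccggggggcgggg
MLX: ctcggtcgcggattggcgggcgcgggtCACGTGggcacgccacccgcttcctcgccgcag
ARRDC4: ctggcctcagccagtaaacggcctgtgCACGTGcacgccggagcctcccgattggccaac
HSPE1: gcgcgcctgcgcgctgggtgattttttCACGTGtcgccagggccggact

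Of the 5 partners that rose in NSM, MNT and MLX have this E-box and MXD1, MXI1 and MLXIP do not, and of the 3 others MXD4 has it and MAX and MXD3 do not. A match of letters does not show that a protein binds there.

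Genes known to be induced by MYC were mostly lower in NSM and in DSF+NSM. Of 40 such genes listed and tested, 13 were called lower and 1 higher in DSF, 27 lower and 1 higher in NSM, and 25 lower and 5 higher in DSF+NSM. Of all genes, 5.95%, 23.7% and 24.5% were called lower and 11.9%, 25.4% and 28.3% higher in these comparisons. With equal sums the list had 36 lower and 1 higher in DSF+NSM, a setting in which 9141 of the 13502 genes were called in either direction. The median log2 fold changes were −0.40, −0.88 and −0.77, beside 0.05, 0.01 and 0.03 for all genes tested. With equal sums they were −0.50, −1.15 and −1.55, beside −0.05, −0.25 and −0.75 for all genes. In DSF the count of lower genes ranged from 3 without the second DSF library to 25 without the third NSM library. The medians of the list in NSM and in DSF+NSM are close, although MYC itself differed 6.21-fold between these groups. Directly compared, 8 of the 40 were lower and 9 higher in DSF+NSM than in NSM, beside 38.6% of all genes called in either direction. The list median of 0.04 became −0.47 with equal sums, while that of all genes went from 0.03 to −0.48.

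NOP16 and RRS1, both nucleolar proteins of ribosome assembly, had the largest falls of the list with both drugs. NOP16 stood at 1866, 1834 and 1638 in DMSO and at 415, 371 and 267 in DSF+NSM, a log2 fold change of −2.36 (limma adjusted p 1.09e-06). RRS1 went from a mean of 1244 to 291 normalized counts, by −2.11 on the log2 scale (limma adjusted p 3.27e-07). In NSM the largest falls were those of HSPE1 (−2.47, limma adjusted p 9.24e-07) and MRTO4 (−2.21, limma adjusted p 1.9e-05), a factor of ribosome assembly, and in DSF those of GAR1 (−1.02, limma adjusted p 0.0148), a part of the RNA-modifying particles of the nucleolus, and HSPE1 (−0.97, limma adjusted p 0.0038). The call of GAR1 was lost without the first or second DMSO or the second DSF library (−1.01, −0.96 and −0.89, limma adjusted p 0.0551, 0.0643 and 0.0824).

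HSPE1 and SLC7A5 were the listed targets with the largest rises. HSPE1, the mitochondrial chaperonin partner of HSPD1, had means of 4864, 2486, 888 and 18192 in DMSO, DSF, NSM and DSF+NSM. It was thus lower with either drug and higher with both (1.87 on the log2 scale, limma adjusted p 4.24e-06). SLC7A5, a large neutral amino acid transporter, went from 3711 in DMSO to 5893, 7021 and 8359 in the 3 treated groups, by 0.67, 0.86 and 1.17 on the log2 scale (limma adjusted p 0.0384, 0.00355 and 0.000375). With equal sums those of DSF and DSF+NSM were 0.57 and 0.39 and not called, and that of DSF was also not called when any 1 of the DMSO or DSF libraries, or the first or second DSF+NSM library, was left out (0.62 to 0.71, limma adjusted p 0.0519 to 0.145). Of 32 listed genes with a RefSeq promoter, 18 (56.2%) hold the E-box, beside 12.7% of all tested genes with an entry. By their medians, the listed genes with the E-box fell less than those without it in DSF+NSM and about as much in NSM. The median log2 fold change with the E-box was −0.37 in DSF+NSM and −0.91 in NSM, beside −1.29 and −0.88 for the genes without.

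Genes known to be repressed by MYC were higher in part. Of 10 listed, 9 were tested, and 4 rose in DSF, 6 in NSM and 5 with both drugs, while 0, 1 and 2 fell (0 in DSF also by the unadjusted limma p). All genes had shares of 11.9%, 25.4% and 28.3% higher and 5.95%, 23.7% and 24.5% lower. The medians of the list were 0.44, 1.23 and 1.63 on the log2 scale beside 0.05, 0.01 and 0.03 for all genes. With equal sums they were 0.35, 0.96 and 0.95 beside −0.05, −0.25 and −0.75 for all genes. The list median of the combination was then no longer above that of NSM, while the median of all genes was lower in the combination than in NSM. CDKN1C (p57), an inhibitor of cyclin-dependent kinases, had normalized counts of 43.1, 35 and 34.8 in DMSO, 162, 181 and 114 in DSF, 243, 210 and 138 in NSM, and 3226, 3461 and 1231 in DSF+NSM. Its DSF+NSM mean was 70.1 times that of DMSO (log2 fold change 5.96, limma adjusted p 7.96e-08). CDKN1A (p21), a second such inhibitor, rose from a mean of 147 to 1412 with both drugs (3.24, limma adjusted p 2.4e-07). NDRG1, a stress-responsive gene, rose by 2.04 in DSF and 1.80 in NSM (limma adjusted p 2.41e-05 and 1.37e-05). Members that fell were CEBPA, a myeloid transcription factor, in NSM (−0.90, limma adjusted p 0.0239), and CDKN1B (p27) and CEBPD in DSF+NSM (−0.87 and −0.85, limma adjusted p 0.0182 and 0.00331). CEBPA was −0.40 without the third NSM library. Its call was lost without any 1 of the DMSO libraries (−0.87 to −0.92, limma adjusted p 0.0547 to 0.0636) or with only the groups compared (limma adjusted p 0.11), and that of CDKN1B without the first or second DSF+NSM library (−0.78 and −0.76, limma adjusted p 0.0646 and 0.0689).

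**Figure D4:**
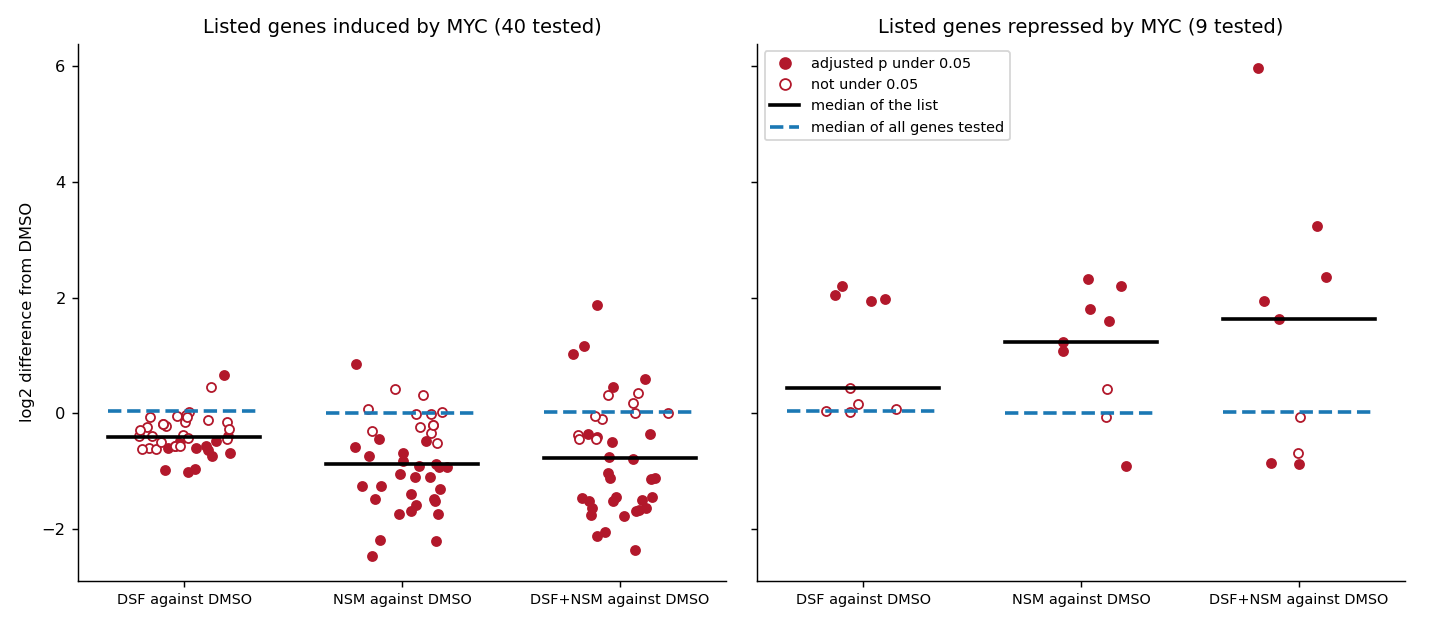
log2 differences from DMSO of the listed genes induced by MYC (left, 40 tested) and repressed by MYC (right, 9 tested) in the 3 treated groups; each point is a gene, filled where the limma adjusted p is under 0.05, with the median of the list as a solid line and that of all genes tested as a dashed line. The induced genes lie mostly below 0 with medians of −0.40, −0.88 and −0.77, and the highest point on the right is CDKN1C in DSF+NSM at 5.96.

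TXNIP and ARRDC4, arrestin-like genes that are read-outs of MondoA and MLX, did not follow the RNA of MLX and MLXIP. TXNIP had normalized counts of 2072, 2125 and 2079 in DMSO, 7189, 7628 and 6121 in DSF, 2264, 2697 and 2212 in NSM, and 1437, 1402 and 1694 in DSF+NSM. It rose in DSF by 1.73 (limma adjusted p 3.71e-06), stood at 0.19 in NSM (limma adjusted p 0.241) and fell in DSF+NSM by 0.47 (limma adjusted p 0.00719). ARRDC4 had means of 122, 398, 49 and 153 in DMSO, DSF, NSM and DSF+NSM. It rose in DSF by 1.72 (limma adjusted p 0.0019), fell in NSM by 1.37 (limma adjusted p 0.00187) and had a value of 0.34 in DSF+NSM (limma adjusted p 0.34). Both were thus highest in DSF, where neither MLX nor MLXIP was called in the fit over all 12 libraries. MLX and MLXIP were not called in DSF+NSM either. In DSF they were called higher without the third NSM library, with only the groups compared and with library weights. Neither TXNIP nor ARRDC4 rose in NSM, where MLX and MLXIP were highest. Of the 5 listed targets of this arm, 4 rose in DSF, 1 rose and 1 fell in NSM, and 2 rose and 1 fell in DSF+NSM, beside 17.8%, 49.1% and 52.8% of all genes called in either direction. With equal sums the median of the 5 turned from 0.34 to −0.44 in DSF+NSM and from 0.05 to −0.21 in NSM, where the medians of all genes were −0.75 and −0.25. KLF10, a zinc finger repressor, rose by 1.60, 1.46 and 1.39 in the 3 treated groups (limma adjusted p 0.00115, 0.000452 and 0.000515), and PFKFB3, a regulator of glycolysis, by 1.05 in DSF+NSM (limma adjusted p 0.00052), which was 0.26 and not called with equal sums.

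RNA of the cofactors and corepressors that MYC and MXD proteins work through changed in both directions. Of 11 listed MYC cofactors, 2 rose and 1 fell in DSF, and 2 rose and 5 fell in NSM and again in DSF+NSM. Of all genes, 11.9%, 25.4% and 28.3% rose and 5.95%, 23.7% and 24.5% fell. ZBTB17 (MIZ1), through which MYC represses, rose by 0.97 in DSF, 0.86 in NSM and 1.70 with both drugs (limma adjusted p 0.00396, 0.00199 and 9.8e-06). KAT5, an acetyltransferase, rose by 0.67, 0.90 and 1.20 in the same order (limma adjusted p 0.00583, 0.000187 and 1.49e-05). Cofactors that fell were RUVBL1 and KAT2A in NSM (−1.46 and −1.20, limma adjusted p 5.03e-05 and 0.0134), where KAT2A was −0.65 without the third NSM library and not called when only the groups compared were fitted (limma adjusted p 0.0692), and ACTL6A and WDR5 in DSF+NSM (−1.56 and −1.03, limma adjusted p 4.7e-07 and 8.77e-05). Those 4 belong to chromatin remodelling, acetylation or histone methylation complexes. ACTL6A also fell in DSF by 0.42 (limma adjusted p 0.0265), a call lost without any 1 DMSO library or the first or second DSF library (limma adjusted p 0.0675 to 0.124).

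Of 9 corepressor genes through which MXD proteins act, 0 rose (0 also by the unadjusted limma p) and 2 fell in DSF, and 4 rose and 3 fell in NSM and in DSF+NSM, beside 17.8%, 49.1% and 52.8% of all genes called in either direction. The scaffold genes SIN3A and NCOR1 rose in NSM by 1.08 and 1.14 (limma adjusted p 0.00103 and 3.31e-05), and SIN3B and the SIN3-associated SAP30 in DSF+NSM by 1.53 and 1.11 (limma adjusted p 0.00233 and 0.000398), though the last 2 were not called with equal sums (0.75 and 0.33). Equal sums also ended the calls of SAP30 in NSM (0.33, limma adjusted p 0.165) and NCOR1 in DSF+NSM (0.00, limma adjusted p 0.972). RBBP4 and RBBP7 bind histones, and HDAC1 and HDAC2 are deacetylases. RBBP7 fell by 1.29 in NSM and 1.13 in DSF+NSM (limma adjusted p 6.06e-06 and 1.1e-05), RBBP4 by 0.94 in DSF+NSM (limma adjusted p 0.000996) and HDAC1 by 0.85 in NSM (limma adjusted p 0.000928). In DSF, HDAC2 and RBBP7 fell by 0.73 and 0.46 (limma adjusted p 0.0254 and 0.0247), calls that were lost without any 1 DMSO library or the first or second DSF library (limma adjusted p 0.0731 to 0.124 for both).

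Of 13 genes for turnover of the MYC protein, 12 were tested, and 1 rose in DSF, 2 rose and 3 fell in NSM, and 1 rose and 5 fell in DSF+NSM. Taken in either direction, these counts are near or below the shares of all genes called, 17.8%, 49.1% and 52.8%. By direction, 11.9%, 25.4% and 28.3% of all genes rose and 5.95%, 23.7% and 24.5% fell. In DSF+NSM the falls of the list were thus above the share of all genes and its rises below. GSK3B, the kinase that marks MYC for degradation, rose by 1.00 in NSM and 1.10 in DSF+NSM (limma adjusted p 0.000793 and 0.000323), the latter not called with equal sums, and PPP2R5A, a phosphatase subunit that acts after it, rose by 1.01 in NSM (limma adjusted p 0.000775). USP36, a deubiquitinase of MYC, and AURKA, a kinase, fell in DSF+NSM by 1.02 and 0.62 (limma adjusted p 1.86e-05 and 0.000813), and SKP2, a ubiquitin ligase subunit, fell in NSM by 0.84 (limma adjusted p 0.000331). The remaining named changes were near the threshold. HUWE1, a ubiquitin ligase, had 0.41 in DSF (limma adjusted p 0.0391) and KIAA1524 (CIP2A) had −0.75 in NSM (limma adjusted p 0.0462). Equal sums, median of ratios scaling or leaving out most single libraries ended the call of HUWE1 (0.32 to 0.46, limma adjusted p 0.0501 to 0.165). The call of KIAA1524 was lost in 11 of the 12 fits that leave out 1 library (−0.45 to −0.78, limma adjusted p 0.0571 to 0.178), and without the third NSM library it was −1.19.

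Of the 5 other family genes listed, MYCL, MGA and MLXIPL are in the files. MGA, which pairs with MAX as part of a repressor complex, had means of 893, 825, 877 and 574 in DMSO, DSF, NSM and DSF+NSM and fell with both drugs by 0.65 (limma adjusted p 0.00238). MYCL was close to 0, with normalized counts of 0, 0.736 and 2.87 in DMSO, 6.76, 10.7 and 8.3 in DSF, 1.91, 5.66 and 1.25 in NSM, and 33.3, 33.6 and 10.8 in DSF+NSM. These rest on about 0 to 3 reads in DMSO and 5 to 22 in DSF+NSM. MYCL was called in DSF+NSM (3.68, limma adjusted p 0.000389) and in DSF (2.32, limma adjusted p 0.0253), the second not without the first or second DMSO library or any 1 DSF library (1.87 to 2.47, limma adjusted p 0.0602 to 0.107), nor with a pseudocount of 10 (0.73). MLXIPL had means of 0.957 to 14.9 and was left out by the filter.

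Of 18 genes listed near it, 7 were tested, at 1.18 to 2.74 Mb from MYC, and 1 rose in DSF, 5 rose and 1 fell in NSM, and 5 rose and 1 fell in DSF+NSM. The shares of all genes called higher were 11.9%, 25.4% and 28.3%, and those called lower 5.95%, 23.7% and 24.5%. TRIB1, a pseudokinase gene of myeloid leukemia, had means of 174, 331, 379 and 568 in DMSO, DSF, NSM and DSF+NSM and rose by 1.70 in the last (limma adjusted p 0.000266). Its value in DSF, 0.93 (limma adjusted p 0.0386), was not called with equal sums (0.83) or median of ratios scaling (0.88), without any 1 of the DMSO or DSF libraries, or without the first or second DSF+NSM library (0.81 to 1.04, limma adjusted p 0.0502 to 0.137). NSMCE2, of the SMC5/6 complex, rose by 1.20 in NSM and 1.38 in DSF+NSM (limma adjusted p 0.000814 and 0.000237). KIAA0196 (WASHC5), at the same 2.64 Mb from MYC as NSMCE2, fell by 1.57 and 1.39 in the same groups (limma adjusted p 1.17e-05 and 2e-05). FAM49B was not called in any of the 3 comparisons, with values of −0.61, −0.12 and −0.15 (limma adjusted p 0.21, 0.775 and 0.71).

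SQLE, of sterol synthesis, ASAP1 and the low FAM84B (4.51 to 26.9 normalized counts on average) were called higher in NSM and in DSF+NSM. SQLE had 0.76 and 1.02 (limma adjusted p 0.0198 and 0.00322), which equal sums brought to 0.49 and 0.24 without a call, and the first was also lost without the first DMSO library (0.69, limma adjusted p 0.0686) or with only the groups compared (limma adjusted p 0.0601) and was 0.45 without the third NSM library. ASAP1 had 1.16, or 0.76 without the third NSM library, and 0.79 (limma adjusted p 0.00336 and 0.025). The second was 0.01 with equal sums, and it was not called without the first or second DMSO or the second or the third DSF+NSM library (0.69 to 0.81, limma adjusted p 0.053 to 0.0853). FAM84B had 1.47 and 2.34 (limma adjusted p 0.0479 and 0.00404), the first lost in 9 of the 12 fits that leave out 1 library (0.75 without the second NSM library, limma adjusted p 0.209). That call was also lost with equal sums (1.25, limma adjusted p 0.0878), a pseudocount of 10 (0.81, limma adjusted p 0.0805) and no filter (limma adjusted p 0.051).

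**Figure D5:**
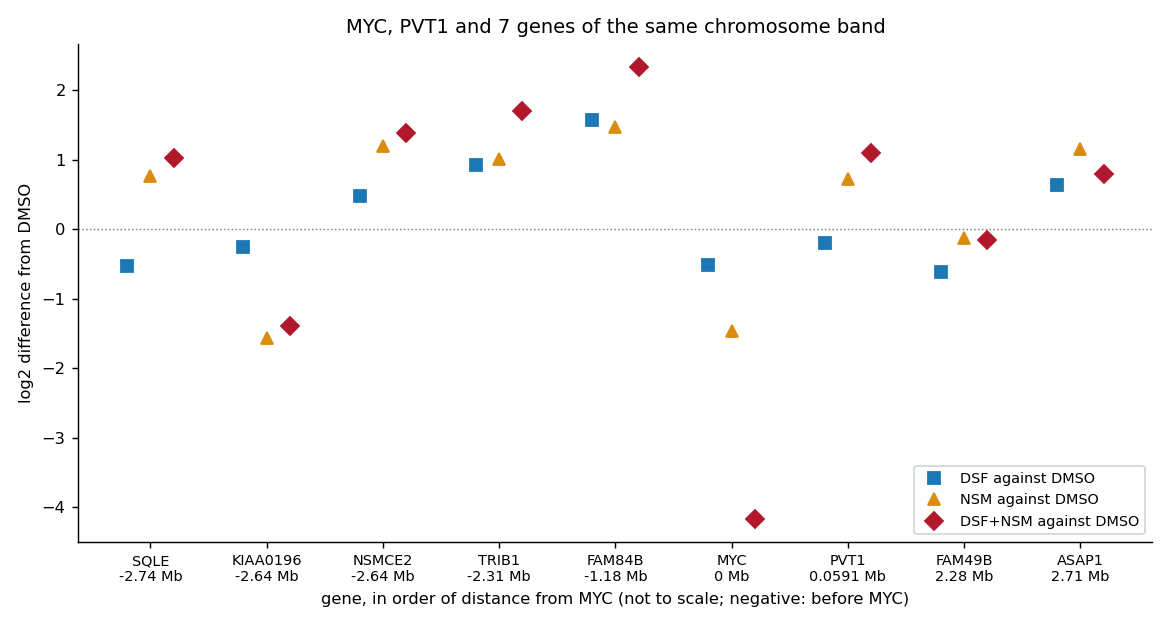
log2 differences from DMSO of MYC, PVT1 and 7 genes of the same chromosome band, ordered by distance from MYC in Mb (axis not to scale), for DSF, NSM and DSF+NSM. MYC lies at −4.17 with both drugs, the next lowest gene, KIAA0196, at −1.39, and PVT1, the nearest at 59.1 kb, at 1.10.

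Over the 12 libraries, the genes whose log2 level ran most like that of MYC, out of 10794 with a mean of at least 50, were MIEF1 (Pearson r 0.995), MYD88 (0.99), C22orf29 (0.989), TGFBRAP1 (0.987) and MED20 (0.985). MIEF1 acts in mitochondrial division, MYD88 is the adaptor of Toll-like receptors, and MED20 is a subunit of Mediator. Each fell from DMSO through DSF and NSM to DSF+NSM, MIEF1 from a mean of 1629 to 638 and TGFBRAP1 from 898 to 143. Those most like PVT1 were KRT10 (0.983), SAP18 (0.973) and PPIB (0.972). The libraries fall into 4 groups and share a scaling, so these correlations mostly restate the order of the groups. With MYC, PVT1 had an r of −0.865 and MXD1 of −0.85, MXD3 of 0.673, MXD4 of −0.539 and MAX of 0.404, and MXI1, MNT, MLX and MLXIP lay between −0.234 and 0.0452.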

How the data were processed

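RNA from SHI-1 cells was measured in 12 libraries, 3 for each of 4 groups named by the labels. The authors trimmed reads, aligned them with STAR and estimated transcripts with Salmon in the nf-core/rnaseq pipeline on GRCh38, and tested genes with DESeq2, per the supplement, which does not name the normalization. The submitters' processing notes name bcl2fastq 2.19, Trimmomatic, Bowtie2, Picard, featureCounts and DESeq2 instead, so the tool that counted is unsettled. The deposited signal values are normalized counts that are not whole. Only 32.5% to 33% were whole multiples of the value of 1 read (tolerance 0.01), so whole reads could not be had and count models were left out. The reads given are estimates from that step. The file headers name 24 libraries, of which 12 were not used here.

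limma 3.58.1 (trend, robust) in R 4.3.3 was fitted to log2(value + 1) of the 13502 genes that reached a value of 10 in 3 libraries or more, over all 12 libraries with a mean for each group, and p-values were adjusted by Benjamini-Hochberg over all genes tested, with 0.05 as the threshold for a call. Fold changes on this scale understate those of low genes. Replicates are independent experiments of 1 cell line. The members and lists were chosen with earlier results of these data known. Within each list, the 2 genes with the largest called rise and the 2 with the largest called fall were named for each treatment (mean of at least 50), together with TXNIP, ARRDC4, all family and neighbour genes and the genes most like MYC (5) and PVT1 (3). Lengths, distances and shared exons came from GENCODE 44, promoters from RefSeq. The fit was tested on simulated data. Alternatives were other scalings, pseudocounts and filters, fits to the groups compared alone, a replicate block, library weights, and leaving out each library. Sequences and positions of MYC and PVT1, and 2 genes of the lists, are not reported here.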

Additional observations from a re-analysis of the deposited data

Results flagged for a closer look

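For 5 partner genes the effect of 1 treatment (disulfiram with copper, or niclosamide) differed between cells with and without the other, as tested by the interaction term of limma. That term was called for 26.1% of all genes tested. The interaction was −2.02 on the log2 scale for MNT (limma adjusted p 0.000236). For MXI1 it was −1.57 (limma adjusted p 0.00259). For MLXIP it was −1.04 (limma adjusted p 0.0113) and for MLX −0.89 (limma adjusted p 0.00699). MXD3 had −1.23 (limma adjusted p 0.0222), which was not called when the second or the third DMSO, the first or second DSF or the second NSM library was left out (−1.12 to −1.20).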

How the results depend on the processing

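Of 26 called partner comparisons out of 48, 16 kept their call and direction in every alternative tried. Equal sums turned the log2 value of PVT1 to −0.13 for DSF+NSM against NSM and gave PVT1 0.45 (NSM), 0.33 (DSF+NSM) and 0.62 (DSF+NSM against DSF) with an interaction of 0.17, and MYC −0.61, −1.73 and −4.95 against DMSO, −4.34 against DSF, −3.22 against NSM and an interaction of −2.61. Equal sums also turned MAX in NSM (−0.00), MXD4 in DSF+NSM (−0.10), against DSF (−0.44) and against NSM (−0.24), and MXI1 (−0.10), MNT (−0.36), MLX (−0.59) and MLXIP (−0.53) in DSF+NSM. It called 5 partners in DSF+NSM (MXD1 higher, the others lower) and 7 for DSF+NSM against DSF, with 9141 and 8258 genes called in all. Median of ratios scaling gave 0.00 for MLX against DSF. It ended the calls of MXI1, HUWE1 and TRIB1 in DSF (limma adjusted p 0.0526, 0.0647 and 0.0522) and of KIAA1524 in NSM (limma adjusted p 0.0517). Fitting only the groups compared called 7150 genes in DSF and 2483 for DSF+NSM against NSM, with 6, 5 and 2 partners in DSF, in DSF+NSM and for DSF+NSM against NSM, and 31 MYC-induced genes lower in DSF. It gives no interaction. Library weights, whose estimation did not fully converge, called 8171, 11107, 9120, 9782 and 8933 genes in DSF, in NSM, for DSF+NSM against DSF and against NSM and for the interaction, with 7, 8 and 8 partners in DSF, NSM and DSF+NSM and 32 MYC-induced genes lower in DSF, and gave −1.34 for MYC in NSM. Leaving out 1 library gave 911 to 5551 genes in DSF and 2569 to 6175 for the interaction, 2 to 6 partners in DSF and 1 to 7 in DSF+NSM, and 3 to 25 MYC-induced genes lower in DSF. It turned MXD4 against NSM (−0.10 to 0.49) and in the interaction (−0.54 to 0.05), and MXI1 (−0.21 to 0.04), MLX (−0.05 to 0.01) and MLXIP (−0.14 to 0.01) against DSF. The cause of these shifts was not tested. The labels number the replicates, but same-numbered libraries had an r of −0.06 to 0.28 in their deviations, over 0.1 in 2 of 18 pairs, so the numbers were not taken as pairs. A replicate block called 2520 genes in DSF and 7279 in DSF+NSM, and all 26 partner calls held with it, while MXD4 in DSF+NSM gained one (0.68, limma adjusted p 0.0443). Depth limits PVT1, MYCL and FAM84B, which rest on at most 78 reads a library.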
